A study of Mus musculus with 2 samples.

Results

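The interleukin-6 family genes examined were the ligand genes Il6, Il11, Lif and Clcf1 and the receptor chain genes Il6st, Il6ra, Lifr and Osmr, measured in primary bone-forming cells (osteoblasts) after 6 h in 4 mM phosphate or in 1 mM phosphate. The members were all probe sets, the groups of short DNA probes that report 1 transcript each, whose annotation names only 1 of these 8 genes. There were 19 of them among 45037 probe sets other than the manufacturer's controls, or 8 genes among 18193 named. No probe set named a member beside another gene.

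The control array came from calvarial (skull cap) osteoblasts of 5-day-old C57BL/6 mice kept in serum-free alpha-MEM with 1 mM phosphate at pH 7.2, and the phosphate array from such cells in medium brought to 4 mM from a 0.5 M sodium phosphate stock of the same pH, so that sodium was added with the phosphate. Both cultures had first been deprived of serum overnight, and the cells were a primary isolate, not a purified line. Only 1 array stood for each group, which leaves the spread between cultures unknown, so no test was run. The differences describe these 2 arrays, and fewer cells of a type cannot be told apart from less RNA per cell in such bulk RNA.

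Cytokines of this family signal through a shared receptor subunit, gp130, encoded by Il6st, which pairs with a chain that sets the specificity. Interleukin-6 first binds its own receptor Il6ra, LIF and CLCF1 use gp130 together with the LIF receptor, and oncostatin M uses gp130 with Osmr. The assembled receptor activates JAK kinases and the transcription factor STAT3, which induces the inhibitor Socs3 as a feedback. In bone, osteoblasts and osteocytes make these cytokines and respond to them, and the family is known for effects on osteoclast formation and on bone formation.

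The promoters of Il6, Il11 and Lif are shown because these 3 ligand genes were higher in phosphate and their start regions hold a match to the AP-1 motif. The sequences are the 250 bases before the start site in RefSeq, build GRCm38.p6, written 5′ to 3′ on the gene's strand. Il6 lies at chr5:30012864-30013113 on the plus strand, Il11 at chr7:4778142-4778391 on the minus strand and Lif at chr11:4257318-4257567 on the plus strand. Capitals mark each match to a searched motif. In Il6 these are, in order, AP-1, the CRE core, C/EBP and NF-kB, and in Il11 and Lif they are AP-1.
Il6: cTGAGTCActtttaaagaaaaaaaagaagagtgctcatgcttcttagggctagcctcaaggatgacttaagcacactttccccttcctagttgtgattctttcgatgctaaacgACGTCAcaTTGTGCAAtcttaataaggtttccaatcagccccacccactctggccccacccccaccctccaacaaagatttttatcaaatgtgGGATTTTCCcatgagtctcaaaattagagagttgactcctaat
Il11: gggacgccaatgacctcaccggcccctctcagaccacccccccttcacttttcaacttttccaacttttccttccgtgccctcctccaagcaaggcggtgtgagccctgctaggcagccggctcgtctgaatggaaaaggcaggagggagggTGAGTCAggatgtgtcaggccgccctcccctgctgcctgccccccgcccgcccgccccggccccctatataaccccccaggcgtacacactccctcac
Lif: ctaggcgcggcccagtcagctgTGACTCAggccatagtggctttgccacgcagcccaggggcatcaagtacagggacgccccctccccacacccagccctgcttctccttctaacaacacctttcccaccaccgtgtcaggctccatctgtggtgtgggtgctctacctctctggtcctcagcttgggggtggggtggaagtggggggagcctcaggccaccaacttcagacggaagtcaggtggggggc

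The motifs were searched on both strands of the 300-base windows in the table, which run from 250 bases before to 50 bases after each start site. RefSeq windows were found for 7 of the 8 genes, 9 windows in all, and none was used here for Clcf1. The AP-1 motif TGANTCA, bound by Fos and Jun proteins, was matched in a window of Il6, Il11, Lif and Osmr, and 7.81% of all 32851 windows held it. In Osmr the match lay 4 to 10 bases after the start. The second Il11 window and those of Il6st, Il6ra and Lifr held no match to any of the 6 motifs. The NF-kB motif GGNNTTTCC was matched only in the window of Il6 among the 9, 43 to 35 bases before the start, against 5.82% of all windows. The Il6 window also held 1 match each to the C/EBP motif TTGCNNAA (10.8% of all windows) and to the CRE core TGACGT (7.51%). The full CRE, TGACGTCA, which contains that core, and the STAT motif TTCNNNGAA were matched in none of the 9 windows, against 1.79% and 8.3% of all windows. The motifs were picked with the members' values in view, so these matches describe the letters of the windows and are no test. No binding was measured.

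All 4 ligand genes were at least 2-fold higher in 4 mM phosphate, and of the 4 receptor chain genes only Osmr was. The 8 members were chosen with earlier results of these data known, so their counts and median are a description and no test. Each gene was read from its brightest probe set, and any signal under a floor of 21.5 (the median signal over the 2 arrays) was set to the floor before the ratio was taken. The median log2 ratio of the 8 genes, phosphate minus control, was 1.504, against -0.06 over all 12276 genes measured. Of these genes, 2.3% passed 2-fold upward and 2.92% downward, against 5 and 0 of the 8 members. Of the 5, Il6 and Il11 were above the floor in phosphate only, and 3 of 6 members passed 2-fold where both arrays had to exceed it. By probe set, 16 of the 19 were above the floor on at least 1 array, 14 of them on both. Of these 16, 8 passed 2-fold upward and 0 downward, where 2.77% and 2.5% of all measured probe sets did. Setting the manufacturer's poly-A spikes, RNAs added before labelling, to equal signal moved the median of all genes to -0.51. It turned the series-wide split from 282 genes higher and 359 lower to 129 and 1563, and left 4 members at least 2-fold higher, with Clcf1 at 0.93.

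**Figure D1:**
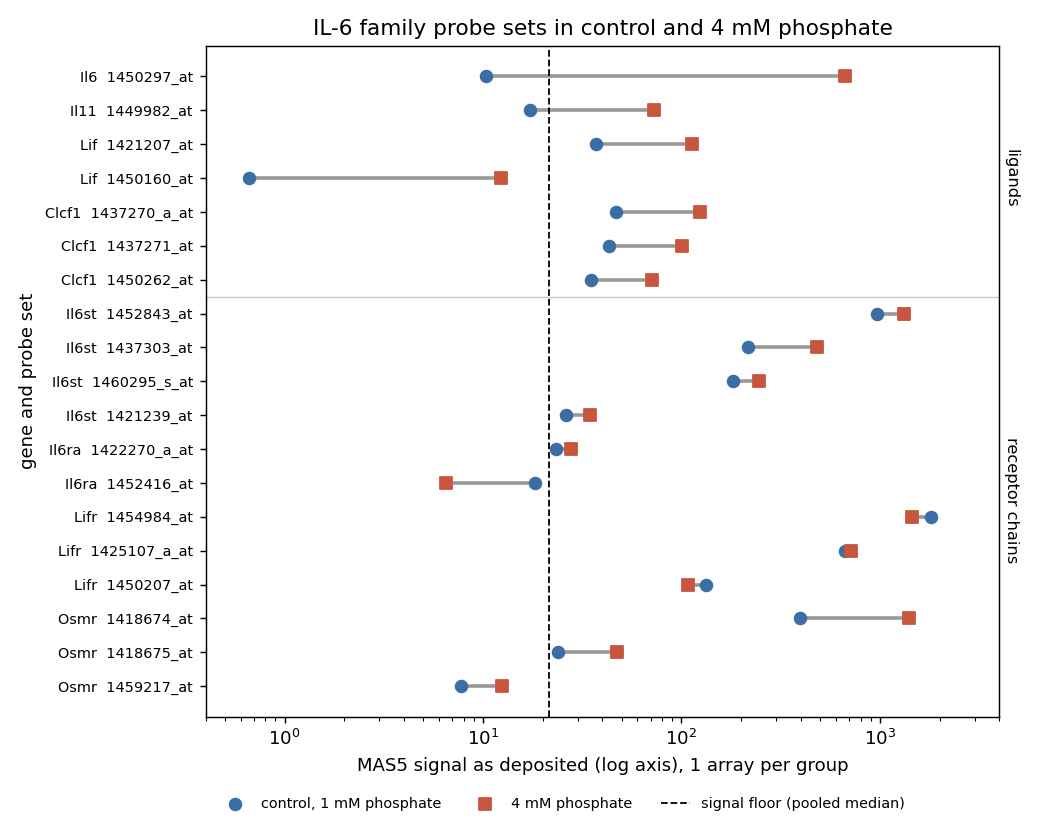
Deposited MAS5 signal (log axis) of the 19 probe sets of the 8 genes, with the control array as circles, the 4 mM phosphate array as squares and the floor of 21.5 as a dashed line. The squares of the ligand genes lie to the right of the circles on every probe set, whereas those of Lifr lie close to or left of them.

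Il6 encodes interleukin-6, the founding cytokine of the family. Its single probe set (1450297_at) had a signal of 10.3 in the control, below the floor, and 664 in phosphate. It was therefore at least 30.9-fold higher, the highest ratio among the 12276 genes measured under this floor, and the ratio of the signals as deposited was 64.2. The size depends on where the floor lies, since the control signal is at background, and with a floor of 100 the log2 ratio was 2.73 rather than 4.95.

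Il11 encodes interleukin-11, a cytokine that acts on bone and connective tissue through gp130. Its single probe set (1449982_at) read 17.3 in the control, below the floor, and 72.5 in phosphate, at least 3.37-fold higher. The phosphate signal was itself dim. With a floor of 70.4, the 65th percentile of all signals, the log2 ratio was 0.04, and with a floor of 100 the gene was not measured.

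Lif encodes leukaemia inhibitory factor. Its brighter probe set (1421207_at) read 37.1 in the control and 113 in phosphate, 3.05-fold higher. The other (1450160_at) read 0.664 and 12.3, both below the floor, and gives no ratio. The log2 ratio of 1.61 compares with a standard deviation of 0.42 per probe set among probe sets of the same gene at such dim signals, which measures the technical spread on these arrays and not that between cultures.

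Clcf1 encodes cardiotrophin-like cytokine factor 1, which is secreted with a partner chain and signals through the CNTF receptor, gp130 and the LIF receptor. It was the only ligand with 3 probe sets, and both arrays read all of them above the floor. They read 46.9, 43.3 and 35.2 in the control and 124, 101 and 70.8 in phosphate. The ratios were 2.63-fold, 2.33-fold and 2.01-fold higher, so the probe sets gave 1 direction, with the dimmest just past the 2-fold limit. With the floor of 70.4 the gene's log2 ratio was 0.81, and for Lif it was 0.69, so both fell short of 2-fold there.

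Osmr, the chain that pairs with gp130 to bind oncostatin M, was higher at a signal well clear of the floor. Its brightest probe set (1418674_at) went from 395 in the control to 1401 in phosphate, a 3.55-fold difference. The log2 ratio of 1.83 compares with a technical standard deviation of 0.26 for probe sets of like signal, which does not measure the spread between cultures. With the median over probe sets the gene's log2 ratio was 1.41. A second probe set (1418675_at) read 23.9 and 47.6, a 1.99-fold difference just short of the limit, and the third lay below the floor on both arrays at 7.71 and 12.4. Among the members, only Il6 and Osmr stayed at least 2-fold higher at every floor tried.

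Il6st, which encodes gp130 itself, was above the floor on both arrays with all 4 probe sets, and their ratios differed in size. The brightest (1452843_at) read 963 in the control and 1329 in phosphate, a 1.38-fold difference. Another (1437303_at) went from 218 to 481 and was 2.21-fold higher, while the remaining pair read 181 and 246 (1460295_s_at) and 26.3 and 34.5 (1421239_at), which gave 1.36-fold and 1.31-fold. All 4 ratios were above 0 on the log2 scale, from 0.39 to 1.15. The gene was not called by its brightest probe set, and the 1 probe set past 2-fold stood apart from the other three. With the poly-A spikes at equal signal the log2 ratio of the brightest was 0.0012.

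Il6ra, which encodes the ligand-binding chain for interleukin-6, was close to background. One probe set (1422270_a_at) read 23.4 in the control and 27.9 in phosphate, a log2 ratio of 0.26 against a technical standard deviation of 0.42. The other (1452416_at) read 18.2 and 6.49, both below the floor. No difference was detectable for this gene, and its log2 ratio was -0.12 with the poly-A spikes at equal signal.

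Lifr, the chain shared by LIF and CLCF1, had 3 probe sets, each above the floor in both groups. They read 1818, 668 and 132 in the control and 1446, 713 and 108 in phosphate. The log2 ratios were -0.33, 0.09 and -0.29, so under the main setting the probe sets did not share a direction and none came near 2-fold. With the poly-A spikes at equal signal the log2 ratio of the brightest was -0.79, still short of 2-fold. Lifr and Osmr are adjacent coding genes on chromosome 15, and the brightest probe set of each had log2 ratios of -0.33 and 1.83.

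**Figure D2:**
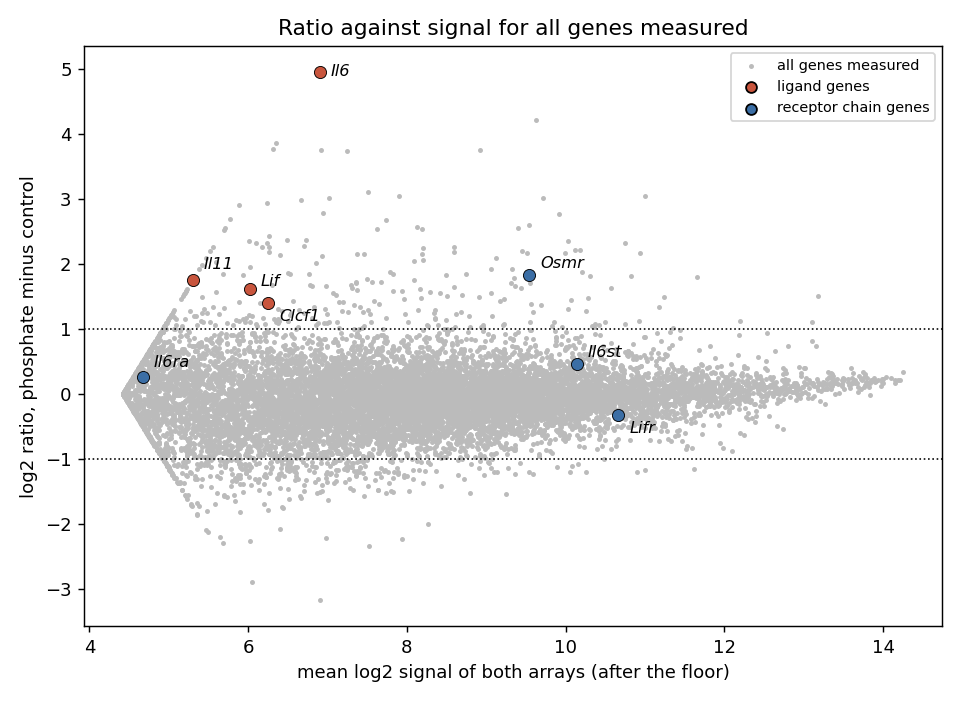
Log2 ratio (phosphate minus control) against mean log2 signal of both arrays after the floor, for 12276 genes (grey) with the ligand and receptor chain genes coloured, and dotted lines at 2-fold. Il6 has the highest ratio of all genes, and Osmr is the 1 member past 2-fold that is bright on both arrays, whereas the slanted left edges show how the floor limits the ratio of dim genes such as Il11.

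Among the members above the floor on both arrays, the log2 ratios ran from Osmr (1.83) through Lif (1.61) and Clcf1 (1.397) to Il6st (0.46), Il6ra (0.26) and Lifr (-0.33). Il6 and Il11 have only lower bounds, 4.95 and 1.75. The bound of Il6 lay above all other members, whereas Il11 has no fixed place among Osmr and Lif, since its log2 ratio was 2.06 without a floor. Lif and Clcf1 differed by 0.21, which is under the technical standard deviation of 0.42 for both. The gap of 0.93 between the brightest probe sets of Clcf1 and Il6st was wider than the technical standard deviation of either, 0.42 and 0.16. The other probe sets did not keep these genes apart. Il6st was 2.21-fold higher on 1437303_at, above the 2.01-fold of Clcf1 on its dimmest probe set (1450262_at).

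The other ligands and receptor chains of the family gave few values. Of 8 other ligand genes, 4 had a probe set that named only them, and 3 were above the floor on at least 1 array, with none at least 2-fold different. Osm, which encodes oncostatin M and is the coding gene next to Lif on chromosome 11, read 18.6 in the control and 22.7 in phosphate, just below and just above the floor. Ebi3, a subunit of interleukin-27, read 50.2 and 50.8. Ctf1, which encodes cardiotrophin-1, was lowest, with 109 in the control and 64.1 in phosphate (log2 ratio -0.76). Of 5 other receptor chain genes only Cntfr, the receptor chain used by CLCF1, was measured, at 10.4 and 22.8. The interleukin-31 receptor gene Il31ra, next to Il6st on chromosome 13, was below the floor on both arrays. The interleukin-11 receptor genes were not analysed here.

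The gene lists, those of other ligands and receptor chains included, were chosen with earlier results of these data known, as were the 8 members. Of 13 measured JAK and STAT signal transducers, 1 was at least 2-fold higher and none lower, against 2.3% and 2.92% of all genes. The median log2 ratio was 0.13. The 1 gene past 2-fold was Stat3, the main transcription factor downstream of gp130, which went from 692 in the control to 1419 in phosphate (2.05-fold). Its 4 probe sets had log2 ratios from 0.48 to 1.08, and 2 of them passed 2-fold. The kinase gene Tyk2 was lowest at -0.37, with 0.26 on its other probe set. The kinase gene Jak1 was at 0.45.

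Of 16 measured genes listed as inhibitors of cytokine signalling, 3 were at least 2-fold higher and none lower, against 2.3% and 2.92% of all genes. The median was 0.27. Socs3, the feedback inhibitor that binds gp130, went from 460 to 2360 on its brightest probe set (5.13-fold), and its 3 probe sets had log2 ratios from 2.23 to 2.57. Socs1, which inhibits JAK kinases, went from 32.4 to 115 (3.54-fold). Socs2, best known as an inhibitor of growth hormone signalling, went from 627 to 1354 (2.16-fold), although another of its probe sets had a log2 ratio of 0.14. Socs4 was not called, at -0.02 on its brightest probe set, although 2 of its 3 measured probe sets passed 2-fold upward. Lnx1, a ubiquitin ligase gene, was lowest at -0.37.

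Of 24 measured genes known to respond to STAT3, 12 passed 2-fold upward and none downward, against 2.3% and 2.92% of all genes. In this list, chosen with earlier results of these data known, 21 had ratios above 0, with a median of 0.97. The highest were the immediate early transcription factor genes Fos (303 to 1829, 6.04-fold) and Junb (82.0 to 475, 5.79-fold), the stress response gene Ier3 (540 to 2499, 4.63-fold) and Steap4, a metalloreductase gene (144 to 600, 4.17-fold). Fos and Junb respond to many signals besides STAT3. Ccnd1, which encodes cyclin D1, was lowest at -0.85. Of the 29 genes in the list, the liver acute-phase genes A2m, Fga, Fgb and Fgg and the glial gene Gfap were below the floor on both arrays.

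Transcription factors known to act on the Il6 promoter had a median of 1.43, with 11 of 20 measured at least 2-fold higher and none 2-fold lower. Over all genes these shares were 2.3% and 2.92%, and this list too was chosen with earlier results known. Of the genes in this list, 5 also stand in the STAT3 list. The AP-1 gene Fosl1 was below the floor in the control at 16.2 on its brightest probe set and reached 312 in phosphate, at least 14.5-fold higher. Its other probe set had a log2 ratio of only 1.21, against 3.86 on the brightest. The others among the highest were the zinc finger gene Egr2 (7.95-fold, a log2 ratio of 2.99, with 2.02 on its other probe set), Fos and Junb. Cebpa, a C/EBP family gene, was lowest at -0.17. The AP-1 motif printed in capitals above is the one that Fosl1, Fos and Junb proteins bind, and the part of these factors in the members' ratios was not tested.

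Of 11 measured regulators of cytokine mRNA stability, 3 were at least 2-fold higher and none lower, against 2.3% and 2.92% of all genes. The median was 0.48. Arid5a, which encodes a protein that stabilises Il6 mRNA, went from 43.9 to 141 (3.21-fold). Zfp36, the tristetraprolin gene whose product promotes decay of cytokine mRNA, went from 121 to 285 (2.35-fold). Zc3h12a, encoding the RNase regnase-1 that degrades Il6 mRNA, was below the floor in the control at 12.1 and read 48.1 in phosphate, at least 2.24-fold higher. The RNA-binding protein gene Hnrnpd was lowest at -0.32 on its brightest probe set. Its other measured probe set was at -1.21, past 2-fold lower, and is not in the count by brightest probe set. Among 6 genes of receptor shedding and trafficking none was 2-fold different, and the log2 ratios ran from 0.33 for Rhbdf1 to -0.12 for Adam10, which encodes a protease that releases Il6ra from the cell surface.

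**Figure D3:**
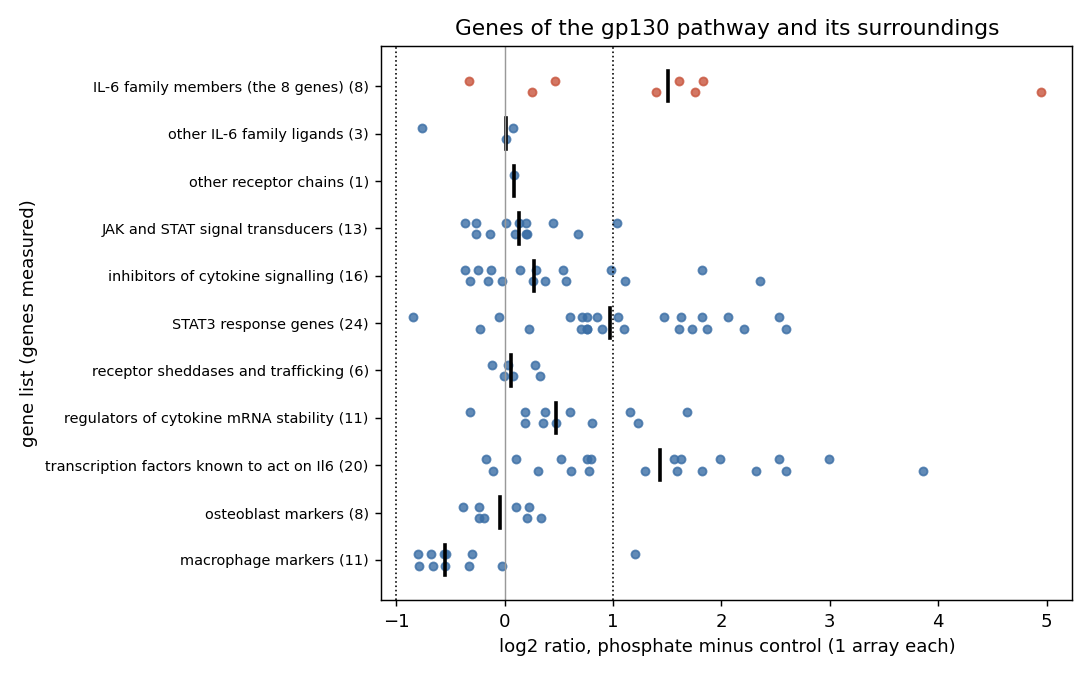
Log2 ratio of each measured gene (points) and the median (black bar) for the 8 members, the 8 gene lists of the pathway and the osteoblast and macrophage markers, with the number measured in brackets and dotted lines at 2-fold. The members, the STAT3 response genes and the transcription factors acting on Il6 lie mostly to the right, whereas shedding genes and osteoblast markers lie around 0.

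The genes nearest to Osmr, Lif and Clcf1 in log2 signal over both arrays after the floor, by Euclidean distance, are given as a description of 2 arrays. For Osmr they were the calcineurin inhibitor gene Rcan1, the transcription factor gene Bhlhe40 and the urokinase receptor gene Plaur at 0.04, 0.09 and 0.20. Those of Lif were the fatty acid receptor gene Gpr84, Socs1 and the DNA sensor gene Cgas at 0.05, 0.20 and 0.24. Those of Clcf1 were Cgas, the TNF family ligand gene Tnfsf9 and Pamr1 at 0.15, 0.19 and 0.19. For Il6 and Il11 the distances are set by the floor, because their control signals lay below it, and none is given.

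The cells carried the markers of their label. Of 11 osteoblast markers, 8 had a probe set naming only them, and all 8 were above the floor on both arrays, with log2 ratios from -0.39 to 0.34. Macrophages, which can also make interleukin-6, were present in both cultures. Of 12 macrophage markers, 11 were above the floor on both arrays, 10 of these 11 were lower in phosphate, and their summed signal was 13577 in the control and 12183 in phosphate. The macrophage list's median was -0.55, and the 1 marker that was higher, Cd14, a lipopolysaccharide receptor, had a log2 ratio of 1.21. The part of these cells in the members' ratios was not tested. All 6 endothelial markers and 5 of 6 lymphocyte and of 6 neutrophil markers with a probe set were below the floor. All 5 chondrocyte markers were measured, with ratios from -0.14 to 0.17, and 4 of 4 adipocyte markers were measured and lower, from -0.08 to -1.73. Transcripts of both lists were thus present in both cultures. The summed signals in control and phosphate were 10285 and 9521 for chondrocyte markers and 4096 and 3324 for adipocyte markers.

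**Figure D4:**
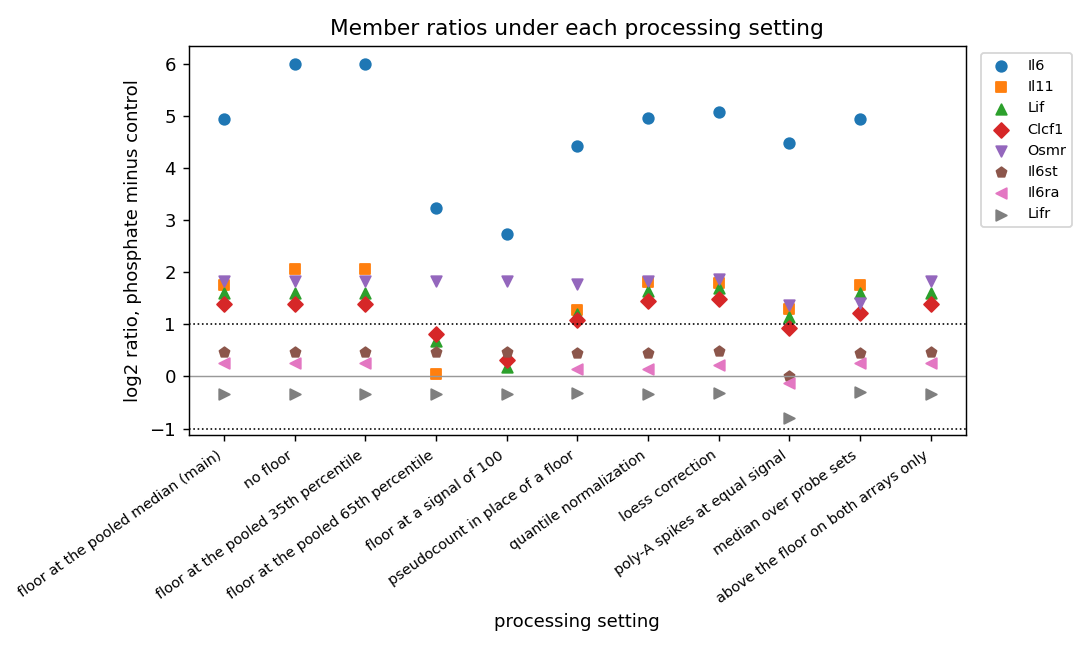
Log2 ratio of each of the 8 genes under the main setting and 10 alternatives, with dotted lines at 2-fold. Il6 and Osmr lie above the upper line wherever they have a value, whereas Il11, Lif and Clcf1 drop below it or have no value at the higher floors, as does Clcf1 with the spikes at equal signal.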

How the data were processed

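Signals of 45101 probe sets on 2 arrays were analysed, 64 of them manufacturer's controls. The authors deposited linear intensity values made with MAS5 in GCOS 1.4, per the submitters' processing notes. The calculated trimmed mean was 200.0 on both arrays, so scaling hides any change of total mRNA. MAS5 signals are noisy when dim. Array number limits precision, and 49.0% and 51.0% of probe sets were above the floor on the control and phosphate arrays.

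Genes were named from the 34945 probe sets whose annotation names 1 gene, with symbols updated by Entrez identifier against RefSeq GRCm38.p6. Another 932 named several genes and 9160 none. Signals were raised to the pooled median (21.5), log2 ratios taken, and each gene read from its brightest probe set by mean log2 signal. A ratio with 1 array at the floor is a bound. With 1 array per group, genes were counted past 2-fold. Ratios and technical spread were tested on simulated data, with changes put only into probe sets whose control signal exceeded 100. The technical spread was required to come back only for probe sets brighter than the dimmest group. Ratios with a control below the floor, and the spread of 0.42 for dim probe sets, were thus not checked. Python 3.11.15, numpy 2.4.6, pandas 2.3.3 and statsmodels 0.14.6 were used.

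Members and lists were chosen with earlier results of these data known. Named genes were all members, the 4 or fewer largest past 2-fold and the extremes of each list, and the 3 nearest genes to each called member, given only for members above the floor on both arrays. Jak1, Il31ra and the markers named singly were picked with their values in view, as were the promoter motifs. The alternatives were 3 other floors or none, a pseudocount, 3 scalings, the median over probe sets, and only probe sets that both arrays read above the floor.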

Additional observations from a re-analysis of the deposited data

Results flagged for a closer look

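Spike signals lie outside the comparison of genes. All 24 poly-A spike probe sets were brighter on the phosphate array. Their median log2 ratio was 0.46, and that of the 18 hybridisation spike probe sets was 0.23.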

How the results depend on the processing

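Il6 and Osmr were the members that kept at least 2-fold in all settings giving them a value. The count of 5 member genes at least 2-fold higher became 2 with a floor of 70.4 (the 65th percentile of all signals) or 100, 3 where both arrays had to exceed the floor, and was 4 or 5 elsewhere. The count of 8 probe sets became 3 at both higher floors and 4 with the poly-A spikes at equal signal, and 1 probe set was at least 2-fold lower without a floor, that of Il6ra at background. With the spikes at equal signal the list medians were -0.84 for other ligands, -0.33 for JAK and STAT transducers, -0.19 for inhibitors, 0.51 for STAT3 response genes, -0.41 for shedding, 0.012 for mRNA stability and 0.97 for transcription factors acting on Il6. The last was 1.15 with the floor of 70.4 and 1.05 with both arrays above the floor. Other ligands were at -0.37 without a floor and with both arrays above it, and at -0.63 with the floor of 70.4. Other receptor chains, 1 gene, were at 1.13 without a floor and with a floor of 10.2 (the 35th percentile). No called member ratio changed sign. Stat3, Socs2, Zc3h12a and Zfp36 had log2 ratios of 1.04, 1.11, 1.16 and 1.23 under the main setting. Pim1 and Timp1 of the STAT3 list were at 1.05 and 1.10, Relb of the Il6 factors at 1.30 and the macrophage marker Cd14 at 1.21. All of these genes fall short of 2-fold with the poly-A spikes, at a median of 0.46, set to equal signal, so fewer genes of their lists pass there. Without a floor 2126 genes were higher and 1841 lower, and with the floor of 10.2 they were 570 and 582. Low signal limits Il11, Lif, Clcf1 and Il6ra. Il6 and Il11 gave no value with both arrays above the floor. No paired analysis was possible because each group had 1 array.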
